A study of Mus musculus with 3 samples.

Results

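Cycling mesenchymal nuclei of the newborn mouse aortic root, labelled as aortic valve structure, are described here from single-nucleus RNA counts. The aortic valve structures came from pups of the strain labelled B6.Cg-Scx<tm1.1(EGFP)Skom, also given as RBRC11098, which carries an EGFP allele at Scx, at postnatal day 1. They were pooled into 3 samples of 22 to 24 aortic roots each, and no genotype, treatment or other age was compared. Nuclei were isolated from frozen tissue and read with the gene expression part of the 10x Multiome assay, which counts unique molecular identifiers (UMIs), 1 for each captured RNA molecule. A nucleus was a member when it had at least 1000 UMIs, at most 5% mitochondrial UMIs, and 5 or more UMIs summed over 12 cell cycle genes (Mki67, Top2a, Cenpf, Kif11, Anln, Knl1, Aspm, Cenpe, Hmmr, Kif15, Diaph3 and Tpx2). It also needed at least 2 UMIs of Col1a1, Col1a2 and Col3a1 together, under 0.5% of UMIs from 4 cardiomyocyte genes, at most 1 UMI of 3 endothelial genes and at most 1 UMI of 3 mesothelial genes. In all, 726 of 21140 deposited nuclei were members, 403 in pool 1, 168 in pool 2 and 155 in pool 3.

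Valve mesenchyme is made of fibroblast-like interstitial cells, smooth muscle cells near the root wall and related stromal cells, which together lay down the collagen, proteoglycan and elastic layers of the leaflets. Around birth these cells still divide while the leaflets remodel. Dividing cells express genes in waves: E2F factors drive replication genes at the start of DNA synthesis, and the MuvB complex with Mybl2 and Foxm1 then drives the genes of mitosis. D-type cyclins with Cdk4 and Cdk6 inactivate the retinoblastoma family and open that sequence, and Cdkn1 and Cdkn2 proteins restrain it.

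The 3 pools held between 4611 and 10580 nuclei and 96513814 UMIs in all. Of 14073 nuclei that passed the depth and mitochondrial limits, 5746 passed the mesenchymal gates. Members made up 12.7% of gated nuclei in pool 1 (Wilson 95% interval 11.6 to 13.9%), 14.6% in pool 2 (12.7 to 16.8%) and 10.9% in pool 3 (9.38 to 12.6%), a mean of 12.7 ± 1.88% (SD, n = 3 pools). These intervals cover counting error only. Another 1611 gated nuclei had 1 to 4 cycle UMIs and 3409 had none. Among the 1534 kept nuclei with 5 or more cycle UMIs, 808 failed a gate, most often the endothelial one (537 nuclei).

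The 12 genes that chose the members are given as a description only. A member carried a median of 18.5 of their UMIs (quartiles 8 and 35, maximum 358), spread over a median of 7 of the 12 genes, and 28 members reached the limit on a single gene. Diaph3, a formin of the contractile ring, gave 6020 of the 18986 UMIs and was present in 92.1% of members. Top2a, the topoisomerase that untangles replicated DNA, was present in 74.2%, Mki67, which coats mitotic chromosomes, in 62.1%, and Cenpf, a kinetochore protein, in 36.4%. At the limit itself, the 69 members with exactly 5 cycle UMIs held 2725 CPM (UMIs scaled to equal totals) of 50 replication genes and 1706 CPM of 75 mitosis genes. Of these 69, 76.8% held Diaph3, 43.5% Top2a, 17.4% Mki67 and 15.9% Cenpf. The 93 gated nuclei with 4, just outside, held 2491 and 1564 CPM. Members with 20 or more cycle UMIs (347 nuclei) held 3764 and 12006 CPM, and those with 5 to 19 (379 nuclei) held 4030 and 3523 CPM. This scale is made of the rule's own genes, so nothing is read from it.

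The collagen gate is a low bar in these libraries. Of 295 nuclei with at least 5% of UMIs from cardiomyocyte genes, which should lack collagen RNA, 42.7% also held 2 or more collagen UMIs, at median depths of 5678 UMIs there and 5136 in members. Their collagen level was 327 CPM against 4243 CPM in members, and 141 members had only 2 to 4 collagen UMIs. Markers of other cell types were present in both states. The cardiomyocyte list (5 genes) summed to 1887 UMIs in members and 1447 in matched nuclei, with 2 or more UMIs in 42.7% and 41.7% of nuclei and 5 or more in 111 and 87 nuclei. The endothelial list (6 genes) summed to 848 and 792 UMIs, with 2 or more in 26.2% and 20.5% of nuclei. The macrophage list (6 genes, all detected) summed to 934 UMIs in members, of which 906 lay in 35 nuclei, against 498 UMIs in the non-cycling nuclei matched to them. By pool it was higher in members of pools 1 and 2 (224 against 106 CPM and 289 against 135 CPM) and lower in pool 3 (74.0 against 196 CPM). The Schwann cell list summed to 194 UMIs in members and 98 in matched nuclei, with Sox10 at 29 and 4, and its 1 tested gene, Cdh19, rose in the depth-matched comparison given next (log2 fold change 1.02, adjusted p 0.026), but not without pool 1 (0.163) or pool 3 (0.191). The melanocyte list summed to 521 and 364 UMIs. Red cell genes ranged from 169 to 958 CPM over the pools in members and from 318 to 4208 CPM in the matched nuclei. In the same comparison 2 of 4 tested red cell genes were called lower (50%, against 7.09% of all genes) and 1 of 5 macrophage genes higher (20%, against 10.2%). Of the 7976 red cell UMIs in matched nuclei, 4240 lay in 1 nucleus. In the mean over the marker groups described below, 0 of 4 red cell genes were called (median log2 fold change 0.95). In single groups 2 were higher in the fibroblast and 1 in the Cspg4 and Abcc9 group. The part of such nuclei in each gene result was not tested one by one, but the counts of the depth-matched comparison were repeated in 529 members and 529 matched nuclei with under 5 UMIs of each other type. EGFP, the reporter of the strain, had 14, 7 and 1 UMIs in members of pools 1 to 3 and 15, 9 and 6 in matched nuclei. Pairs of pools shared 44 to 99 barcodes among all deposited nuclei and none among members.

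Because 5 UMIs of 12 genes are found more easily in a deep nucleus, each member was compared with a nucleus of the same pool that passed the same gates, had 0 cycle UMIs and had the nearest UMI total. The 726 pairs had median totals of 5136 and 5137.5 UMIs, but 196 pairs differed by over 10% and 22, at the deep end, by over 1.5-fold, and members summed to 4402694 UMIs against 3857800, with more in each pool. Median mitochondrial shares were lower in members of each pool (0.475%, 0.921% and 0.304% against 0.534%, 1.14% and 0.354%), and the part of this difference in the results was not tested beyond the repeat at a limit of 1%. Counts were summed per pool and state, and the 25 genes of the rule were left out. In cycling nuclei, 1049 of 10317 genes tested were higher (10.2%) and 731 were lower (7.09%) at an adjusted p under 0.05 (edgeR quasi-likelihood test with pool as a block, Benjamini-Hochberg), 17.3% in all. The rises reached further than the falls: 258 genes rose and 9 fell by over 4-fold, while the median over all genes was a log2 fold change of -0.01. Members and matched nuclei were chosen by cell cycle genes, so higher levels of other cell cycle genes describe which nuclei were taken. The number of calls differed between settings, with 659 genes (82.5% of them higher) when the pool block was left out, 736 (70.8% higher) with DESeq2 and 764 (71.7% higher) without pool 1, against 58.9% higher here. The falls numbered 216 without pool 1 and 386 without pool 2.

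**Figure D1:**
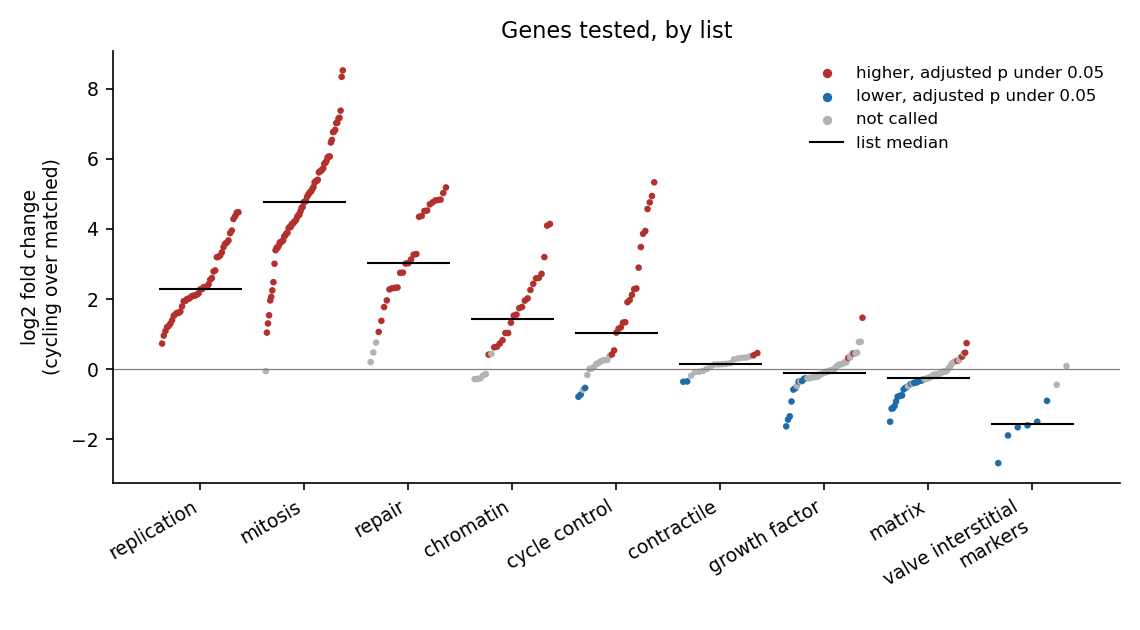
Log2 fold change of each tested gene (cycling over depth-matched nuclei with 0 cycle UMIs, 3 pools), sorted within its list; red and blue points passed an adjusted p under 0.05 and black lines are list medians. The replication and mitosis lists lie above 0 except for Pttg1, while the matrix list and the valve interstitial markers have medians of -0.25 and -1.55.

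Replication genes were higher throughout. Of the 50 genes of the list, 47 were tested and all 47 rose (100%, against 10.2% of all genes), with a median log2 fold change of 2.28. Many of those genes passed the low-count filter only because the cycling nuclei expressed them, and of the 20 that pass it on the non-cycling sums alone, 20 rose. The 3 untested members, Mcm2, Rfc5 and Gins2, had 104, 47 and 57 UMIs in cycling and 28, 7 and 11 in matched nuclei. Pola1, the catalytic subunit of DNA polymerase alpha, stood at 475, 503 and 656 CPM in cycling nuclei of pools 1 to 3 and at 114, 132 and 134 CPM in matched nuclei. The groups did not overlap, and the log2 fold change was 2.08 ± 0.10 (SE, adjusted p 5.38e-13). Mcm6, of the replicative helicase, had 96.5, 76.0 and 74.4 CPM against 29.4, 37.8 and 33.3 CPM, a smaller difference with no overlap (1.39 ± 0.17, adjusted p 2.39e-06). Pcna, the sliding clamp, reached 146 CPM in pool 2 and 75.3 and 60.5 CPM in pools 1 and 3, against 24.0, 27.0 and 4.3 CPM.

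Like Pcna, the 4 genes that follow passed the filter only through the cycling nuclei. Tk1, which salvages thymidine, was at 82.0, 89.0 and 36.6 CPM in cycling nuclei and at 4.4, 2.2 and 1.4 CPM in matched nuclei, a log2 fold change of 4.47 ± 0.28. Clspn, the adaptor that signals stalled forks, rose by 3.88 ± 0.21 on the log2 scale, Ticrr, needed to fire origins, by 4.48 ± 0.32, and Rrm2, of ribonucleotide reductase, by 3.58 ± 0.39. Each of these was higher in the cycling nuclei in 3 of 3 pools.

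Mitosis genes were higher in cycling nuclei, which were chosen mostly by genes of mitosis. Of 75 genes, 72 were tested, 71 rose (98.6%, against 10.2% of all genes) and none fell (7.09% of all genes did). The median log2 fold change was 4.77. Pttg1 (securin) was the one not called, at 11.3 CPM in cycling and 11.6 CPM in matched nuclei (-0.06 ± 0.33, adjusted p 0.935). Of the 71, 62 passed the filter only through the cycling nuclei, and the 9 that pass it on the non-cycling sums alone rose, so the list's median is a description of what was chosen. Plk1, Cdc20 and Kif20a did not pass the low-count filter, with 77, 116 and 116 UMIs in cycling and 7, 10 and 9 in matched nuclei. Cdk1, the kinase that starts mitosis, stood at 88.6, 117.7 and 79.5 CPM in cycling nuclei and at 7.6, 4.3 and 1.4 CPM in matched nuclei. No pool of one state reached the other, and the log2 fold change was 4.06 ± 0.25 (adjusted p 3.02e-11). Its partners Ccnb1, Ccnb2 and Ccna2 rose by 4.91 ± 0.48, 3.39 ± 0.29 and 3.46 ± 0.30.

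Further members of the mitosis list act in chromosome condensation, at the spindle midzone and in cytokinesis, and of those named next Prc1, Kif23, Cit and Ncapg passed the filter only through the cycling nuclei. Prc1, which bundles midzone microtubules, was at 171, 216 and 161 CPM against 7.6, 7.6 and 5.8 CPM (log2 fold change 4.63 ± 0.18). Kif23, a kinesin at the midbody, was at 146, 180 and 135 CPM against 1.8, 2.2 and 0 CPM, the last from a pool with no UMI. Cit, the citron kinase of the contractile ring, rose by 4.60 ± 0.21. For the condensin subunits, Ncapg rose by 5.61 ± 0.29 from 7 UMIs in all matched nuclei, and Smc4 rose by 2.48 ± 0.10 from 312. Ckap5, a microtubule polymerase present in 43.0% of matched nuclei, moved least among those named here, from 129 to 378 CPM (1.54 ± 0.10).

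**Figure D2:**
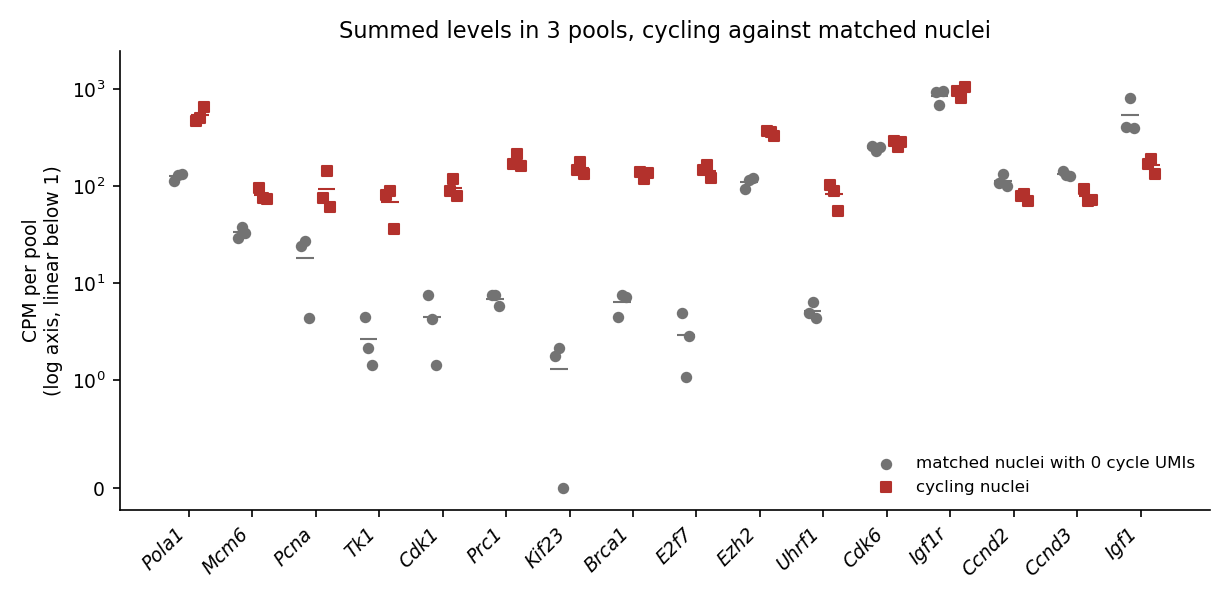
TMM-scaled CPM of 16 genes in each of the 3 pools, in cycling nuclei (red squares) and depth-matched nuclei with 0 cycle UMIs (grey circles), with lines at the mean; the axis is logarithmic above 1 and linear below it. From Pola1 to Uhrf1 the states do not overlap with cycling higher, Cdk6 and Igf1r overlap, and Ccnd2, Ccnd3 and Igf1 are lower in cycling nuclei.

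The genes with the largest rises outside the rule, in the same direction in 3 of 3 pools, were nearly absent from matched nuclei, so their size is given as a ratio of UMIs with its counting interval. Neil3, a glycosylase that acts on DNA crosslinks, had 1666 UMIs in 464 members and 2 UMIs in matched nuclei, a ratio of 730 (95% counting interval 202 to 6032). It was evenly spread over the pools, at 380, 364 and 383 CPM. Depdc1a had 500 UMIs against 1, a ratio of 438 (78.3 to 17339), and Spag5, a spindle protein, had 327 against 1 (287, 51.1 to 11352). Troap, Xkr5 and Gm550 had no UMI in matched nuclei and 147, 82 and 60 in members. Against a floor of 3 UMIs over the group they were at least 42.9-fold, at least 24.0-fold and at least 17.5-fold higher.

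Of the rest of this set, all but Depdc1b are on the mitosis list. Cep55, which recruits the machinery of final abscission, had 445 UMIs against 2, a ratio of 195 (53.7 to 1615). Cdc25c, the phosphatase that activates Cdk1, had 218 against 1 (191, 33.9 to 7579). Bub1, of the spindle checkpoint, had 388 against 2 (170, 46.7 to 1409). Kif18b, Melk, Iqgap3 and Depdc1b had between 152 and 435 UMIs against 1 to 3. Esco2, the cohesin acetyltransferase of S phase, had 416 against 3 (122, 41.3 to 592), and Kif4, a chromosome-bound kinesin, rose by 6.78 ± 0.28 on the log2 scale from 5 UMIs. Xkr5 and Gm550 were the genes of these 15 not tested within marker groups, and the other 13 rose there too.

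Replication and mitosis genes were found in the same nuclei. Among members, 705 of 726 held at least 2 UMIs of each list, against 461 of 726 matched nuclei with 0 cycle UMIs. The median member carried 22 replication and 35 mitosis UMIs, and the median matched nucleus 4 and 3. More members had more mitosis than replication UMIs (472) than the reverse (241), and the reverse share was 35.0%, 33.3% and 28.4% in pools 1 to 3. In matched nuclei with 0 cycle UMIs 410 had more replication and 221 more mitosis UMIs, and in those with 1 to 4 cycle UMIs 439 and 190 did. The 12 genes of the rule are mostly genes of mitosis, so the balance between the lists in members follows in part from the choice, and it is no count of cell cycle phases.

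**Figure D3:**
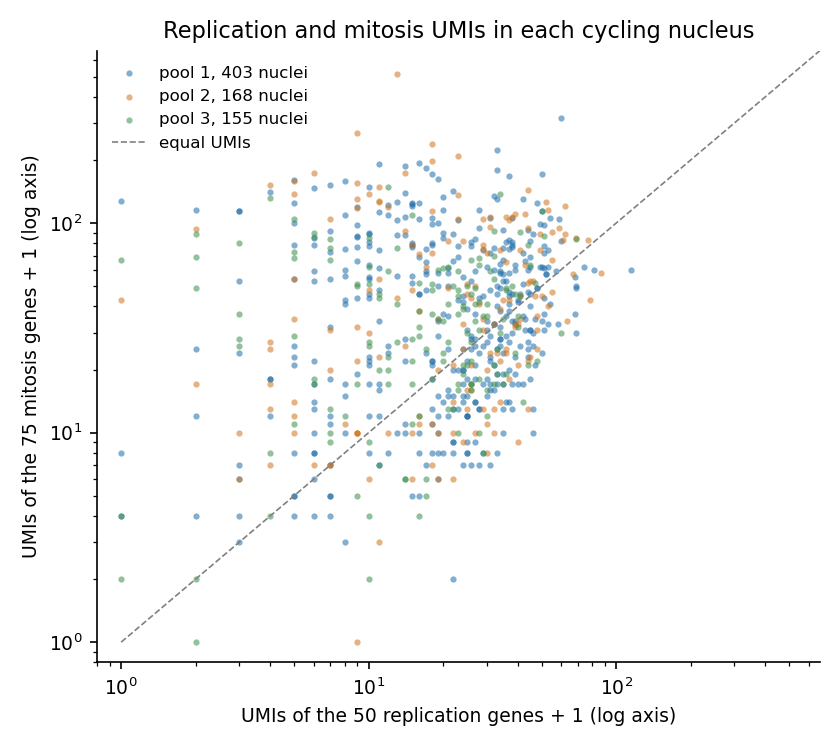
UMIs of the 50 replication genes (x) and 75 mitosis genes (y) in each of the 726 cycling nuclei, each plus 1 on log axes, coloured by pool; the dashed line marks equal UMIs. Points lie on both sides of the line, 472 above it and 241 below, and the 3 pools intermix.

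Most DNA repair genes were higher in cycling nuclei. Of 32 listed, 29 were tested, 26 rose (89.7%, against 10.2% of all genes) and none fell (median log2 fold change 3.02). Of the 10 that pass the filter on matched nuclei alone 8 rose, and the other 18 risers, Brca1 and Fancd2 among them, passed it only through the cycling nuclei. Brca1, a core of homologous recombination, stood at 141, 120 and 137 CPM in cycling nuclei and at 4.4, 7.6 and 7.2 CPM in matched nuclei (4.53 ± 0.22, adjusted p 4.63e-13). Fancd2, of crosslink repair, rose by 5.03 ± 0.32. Atr, the kinase that senses stalled forks, was at 139 CPM in cycling and 123 CPM in matched nuclei and was not called (0.20 ± 0.11, adjusted p 0.24).

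The cycle control list held genes called in both directions. Of 41 genes, 35 were tested, 20 rose (57.1%, against 10.2% of all genes) and 3 fell (8.57%, near the 7.09% of all genes), or 1 fell without pool 1 or without pool 2. Of the rises, 11 passed the low-count filter only through the cycling nuclei, E2f7, Foxm1, Mybl2, E2f1, Ccne2 and Cdkn2c among them, and 9 of the 23 genes that pass it on matched nuclei alone rose. Among the transcription factors of the list, E2f7 stood at 149, 165 and 121 CPM in cycling nuclei against 4.9, 1.1 and 2.9 CPM (5.33 ± 0.24). Foxm1 rose by 4.94 ± 0.34, Mybl2 by 3.94 ± 0.34 and E2f1 by 1.97 ± 0.23. Ccne2, the cyclin of S phase entry, rose by 2.90 ± 0.25 and its kinase Cdk2 by 1.34 ± 0.20. The inhibitor Cdkn2c rose as well, by 3.86 ± 0.33, and the pocket protein Rbl1 rose by 2.30 ± 0.16. Rb1 rose less, by 0.53 ± 0.10, and that call was lost in 4 of 14 alternative settings (other tools, thresholds, gates and left-out pools), among them without pool 1 (adjusted p 0.0698).

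The D-type cyclins did not move with the rest. Ccnd3 was at 94.1, 71.4 and 71.9 CPM in cycling nuclei and at 144, 131 and 127 CPM in matched nuclei, lower in every pool with no overlap. It fell by 0.73 ± 0.12 on the log2 scale (adjusted p 8.66e-05) and was called in all 14 alternatives. Ccnd2 fell by 0.54 ± 0.12 (adjusted p 0.00321), at 79.2, 83.4 and 70.6 CPM against 109, 133 and 99.8 CPM, and lost the call in 4 of 14 alternatives, among them without pool 1 (adjusted p 0.0718) and without pool 2 (0.0556). Ccnd1 was at 28.1 CPM in cycling and 21.1 CPM in matched nuclei (0.38 ± 0.23, adjusted p 0.29). Their kinases were not called either, Cdk4 at 40.5 and 35.8 CPM and Cdk6 at 279 and 247 CPM. Cdkn1c, the imprinted inhibitor, fell by 0.79 ± 0.24 (adjusted p 0.0268), but held the call in 2 of 12 alternatives and lost it without any 1 of the pools (adjusted p 0.0997, 0.131 and 0.12). Cdkn1b was at 52.7 and 43.9 CPM with an adjusted p of 0.419.

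Chromatin genes rose in 22 of 28 tested (78.6%, against 10.2% of all genes) and none fell, with a median log2 fold change of 1.43. Of the 23 that pass the filter on matched nuclei alone, 17 rose, and Uhrf1 is not among them. Ezh2, the methyltransferase of the Polycomb complex, was at 376, 363 and 332 CPM against 94.3, 116 and 121 CPM (1.74 ± 0.11, adjusted p 6.02e-11). Atad2, a bromodomain ATPase of S phase, rose by 3.20 ± 0.12. Uhrf1, which reads hemimethylated DNA behind the fork, rose by 4.09 ± 0.24 and its partner Dnmt1, the maintenance methyltransferase, by 1.95 ± 0.18. Dnmt3a, which methylates DNA anew, was at 178 and 215 CPM and was not called (-0.28 ± 0.10, adjusted p 0.0579), although it passed as lower in 4 of the alternatives.

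The promoters of the called genes were read for the sites of the factors named above because most genes of the mitosis and replication lists rose. Sequences are from RefSeq, build GRCm38.p6, matched by gene name, while the counts were made on GRCm39. The table covers 250 bases before to 50 after a start site, 1 start per gene, the furthest upstream, and had 61 of the 71 risen mitosis genes and 38 of the 47 risen replication genes. The motifs searched on both strands were CCAAT (the NF-Y box), TTTGAA and TTCGAA (the cell cycle homology region, CHR, bound by MuvB), and TTTGGCGC, TTTCGCGC and TTTCCCGC (forms of the E2F site). A CHR form was present in 40 of 61 risen mitosis genes (65.6%), in 5 of 38 replication genes (13.2%) and in 18.2% of 17490 protein-coding promoters. An E2F form was present in 16 of 38 replication genes (42.1%), in 6 of 61 mitosis genes (9.84%) and in 2.49% of protein-coding promoters. CCAAT together with a CHR form was found in 33 mitosis genes (54.1%) and in 7.47% of protein-coding promoters. A match is a description of the letters and shows no binding.

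The 4 mitosis promoters shown each hold a CCAAT box and a CHR form: Cdk1 (chr10:69352913-69353162, minus strand), Espl1, which encodes separase (chr15:102296043-102296292, plus strand), Depdc1a (chr3:159495183-159495432, plus strand) and Ncapg (chr5:45669675-45669924, plus strand). Each run is the 250 bases before the start, 5′ to 3′ on the gene's strand, and capitals mark every match of the 6 motifs on either strand.
Cdk1: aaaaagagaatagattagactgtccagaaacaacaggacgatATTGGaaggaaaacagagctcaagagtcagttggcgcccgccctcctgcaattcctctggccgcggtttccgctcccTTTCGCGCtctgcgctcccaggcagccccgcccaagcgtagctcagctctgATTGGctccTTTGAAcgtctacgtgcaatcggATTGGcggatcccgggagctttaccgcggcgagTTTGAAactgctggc
Espl1: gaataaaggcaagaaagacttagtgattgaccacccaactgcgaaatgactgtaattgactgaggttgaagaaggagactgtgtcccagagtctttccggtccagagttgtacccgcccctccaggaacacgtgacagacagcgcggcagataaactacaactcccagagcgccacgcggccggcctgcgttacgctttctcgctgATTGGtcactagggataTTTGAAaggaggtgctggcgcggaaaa
Depdc1a: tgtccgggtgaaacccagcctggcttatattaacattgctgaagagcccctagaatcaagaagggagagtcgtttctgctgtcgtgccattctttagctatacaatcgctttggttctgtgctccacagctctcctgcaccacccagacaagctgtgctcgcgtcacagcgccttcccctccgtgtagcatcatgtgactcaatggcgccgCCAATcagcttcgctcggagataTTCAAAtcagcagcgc
Ncapg: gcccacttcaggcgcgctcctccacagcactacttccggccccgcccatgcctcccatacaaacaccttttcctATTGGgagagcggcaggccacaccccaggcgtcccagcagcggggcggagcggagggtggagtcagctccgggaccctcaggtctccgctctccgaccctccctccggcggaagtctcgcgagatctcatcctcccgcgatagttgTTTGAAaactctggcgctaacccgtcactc
In Cdk1 a TTTGAA begins 15 bases before the start and another 71 bases before it, with CCAAT boxes read on the other strand (ATTGG) at 48, 80 and 208, and it also holds an E2F form (TTTCGCGC) at 131. Depdc1a has its CHR form on the other strand (TTCAAA), beginning 16 bases before the start, and Ncapg has a TTTGAA 30 bases before it, with its one CCAAT box further off, at 176. Espl1 rose by 4.26 ± 0.33 on the log2 scale.

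The 3 replication promoters shown hold the E2F forms: Mcm5 (chr8:75109259-75109508, plus strand), Mcm6 (chr1:128359706-128359955, minus strand) and Pola1 (chrX:93632156-93632405, minus strand), printed in the same way.
Mcm5: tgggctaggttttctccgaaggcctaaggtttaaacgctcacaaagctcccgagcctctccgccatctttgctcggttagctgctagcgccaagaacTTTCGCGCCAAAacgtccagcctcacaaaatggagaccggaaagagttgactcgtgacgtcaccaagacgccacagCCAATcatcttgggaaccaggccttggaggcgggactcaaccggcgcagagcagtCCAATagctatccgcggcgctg
Mcm6: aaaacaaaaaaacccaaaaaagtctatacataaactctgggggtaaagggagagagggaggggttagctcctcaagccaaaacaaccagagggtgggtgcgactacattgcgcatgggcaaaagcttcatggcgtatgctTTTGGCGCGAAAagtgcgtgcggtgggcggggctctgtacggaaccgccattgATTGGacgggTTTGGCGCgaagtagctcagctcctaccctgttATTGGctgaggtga
Pola1: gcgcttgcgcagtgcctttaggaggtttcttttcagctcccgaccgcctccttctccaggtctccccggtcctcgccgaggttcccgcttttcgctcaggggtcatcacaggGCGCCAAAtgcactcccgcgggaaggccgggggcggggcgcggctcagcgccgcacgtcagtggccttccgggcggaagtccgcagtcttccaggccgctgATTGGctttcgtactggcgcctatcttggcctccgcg
In Mcm5 and Mcm6 a TTTGGCGC and a TTTCGCGC on opposite strands overlap in 1 run of capitals, beginning 153 and 110 bases before the start, and Mcm6 has a further TTTGGCGC at 47. Pola1 has the form on the other strand at 138. Mcm5 rose by 2.35 ± 0.34.

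**Figure D4:**
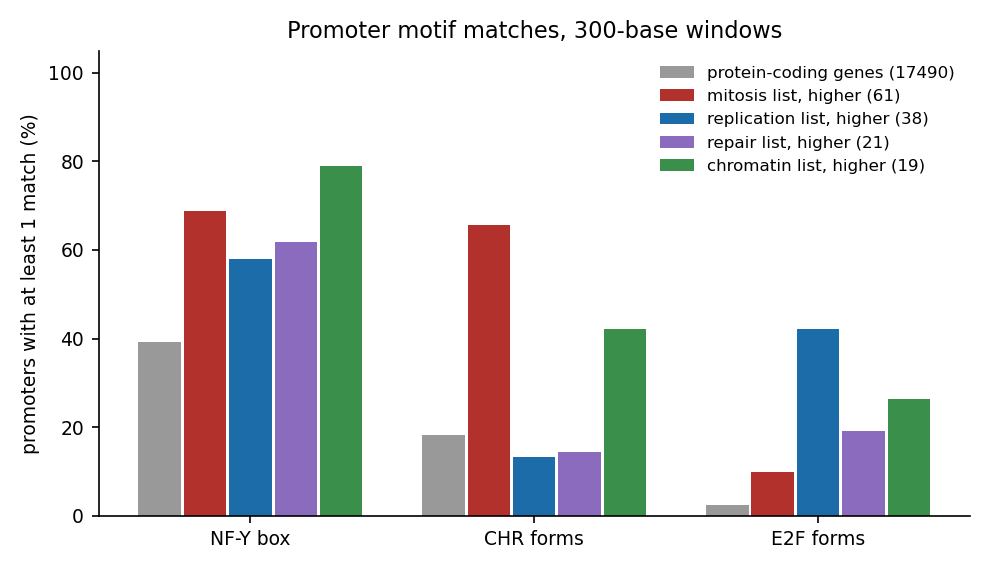
Share of promoters with at least 1 match of the NF-Y box, a CHR form or an E2F form, on either strand of a 300-base window, in 17490 protein-coding genes (grey) and in the genes of 4 lists that rose in cycling nuclei (number with a promoter in brackets). CHR forms are most frequent in the mitosis list (65.6%) and E2F forms in the replication list (42.1%).

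Growth factor and receptor genes were called as lower more often than as higher. Of 44 tested, 3 rose (6.82%, against 10.2% of all genes) and 10 fell (22.7%, against 7.09%), with a median log2 fold change of -0.11, and the falls numbered 5 without pool 1 and 6 without pool 2. With at most 1 UMI of other cell types per nucleus 5 fell and 4 rose. Igf1, a growth factor made by stromal cells, fell the most of these, from 414, 810 and 398 CPM in matched nuclei to 169, 192 and 134 CPM in cycling nuclei. The groups did not overlap (-1.63 ± 0.12, adjusted p 5.09e-10), and the call held in all 14 alternatives. Its receptor Igf1r was at 943 CPM in cycling and 861 CPM in matched nuclei (0.14 ± 0.08, adjusted p 0.258), and Igf2 was at 176 and 161 CPM. Bmp6, a bone morphogenetic protein, fell by 1.35 ± 0.13 and also held in all 14. In the mean over marker groups Bmp6 was not called (-0.42, adjusted p 0.143). It was -1.10 in the fibroblast group (adjusted p 0.0284), and was not called in the valve interstitial (-0.47), smooth muscle (-0.27) or Cspg4 and Abcc9 group (0.14). Erbb4, a neuregulin receptor, fell by 0.55 ± 0.06, a call that was lost without the pool block (adjusted p 0.319). The 3 genes that rose were Igfbp2, Bmpr1b and Pdgfd, named here after their values were seen. Without pool 1 only Igfbp2 was called (Bmpr1b adjusted p 0.123, Pdgfd 0.14), Bmpr1b was also lost without pool 2 (0.0802) and pool 3 (0.337), and none of them was called in the mean over marker groups, while Igfbp2 was higher in the smooth muscle group (1.15, adjusted p 0.023) and the Cspg4 and Abcc9 group (1.55, adjusted p 0.0116).

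Matrix genes leaned lower, with 20 of 52 tested falling (38.5%, against 7.09% of all genes) and 4 rising (7.69%, against 10.2%), a median of -0.25. Dcn, the proteoglycan decorin, was at 483, 735 and 391 CPM in cycling nuclei and at 1012, 1914 and 733 CPM in matched nuclei, lower in each pool although the ranges overlap (-1.13 ± 0.09). Lum, lumican, fell by 1.11 ± 0.12, Mmp2, a matrix protease, by 0.92 ± 0.12, Vcan, the large proteoglycan versican, by 0.75 ± 0.08 and Col6a1 by 0.58 ± 0.11. Without the pool block Dcn (adjusted p 0.101), Lum (0.272) and Mmp2 (0.251) were not called, and at a limit of 1% mitochondrial UMIs Lum (0.0583) and Mmp2 (0.136) were not. Vcan was called in all 14 alternatives. Col6a1 was called in 11 of 14 (highest adjusted p 0.532), and was lost without pool 1 (adjusted p 0.072). The number of matrix genes that fell was 1 without the pool block, 8 without pool 1, 13 without pool 2, 8 at a limit of 1% mitochondrial UMIs and 12 with DESeq2. The 4 that rose, Acan, Col15a1, Lox and Eln, were named after their values were seen, and numbered 0 without pool 1 and 2 without pool 2. Eln, the elastic fibre core, was at 9315 and 7788 CPM (0.24 ± 0.07, adjusted p 0.0153), held the call in 5 of 14 alternatives, lost it without pool 1 (adjusted p 0.278) and without pool 2 (0.362), and changed sign at 1% mitochondrial UMIs (-0.01).

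Of 20 contractile genes 2 were higher (10%) and 2 lower (10%), near the 10.2% and 7.09% of all genes, and these counts became 0 and 0 without pool 1 and 0 and 1 without pool 2. Acta2, smooth muscle actin, was at 676 CPM in cycling and 477 CPM in matched nuclei (0.46 ± 0.11, adjusted p 0.00356) and kept the call in 9 of 14 alternatives, but not without pool 1 (adjusted p 0.0765) or pool 2 (0.113). In the mean over marker groups Acta2 was not called (0.19, adjusted p 0.495), and of 18 contractile genes tested there 0 rose and 1 fell. Myh11, the smooth muscle myosin, was at 406 and 364 CPM and was not called (0.14 ± 0.10, adjusted p 0.37), with the opposite sign at 8 or more cycle UMIs and at 1% mitochondrial UMIs. Of 13 immediate early genes tested, 1 was called (7.69%, with 10.2% of all genes higher), Klf6, which was higher, but not without pool 1 (adjusted p 0.119) or pool 2 (0.0865).

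Markers of valve interstitial cells were lower in cycling nuclei. Of 8 tested, 6 fell and none rose (median -1.55), and all 6 were lower in every cycling pool than in any matched pool, against 9.58% of all genes tested. Adamts19, a metalloprotease of the valve, was at 267, 181 and 270 CPM in cycling nuclei and at 670, 769 and 748 CPM in matched nuclei (-1.61 ± 0.11, adjusted p 2.85e-10). Rmst, a long noncoding RNA, fell by 1.89 ± 0.21 and Pcdh15, a protocadherin, by 2.68 ± 0.29. These 3 calls held in all 14 alternatives. Of the other marker lists, 3 of 9 fibroblast markers fell (33.3%) and 1 rose (11.1%), with a median of -0.44, and 2 of 10 smooth muscle markers rose (20%) and none fell (median 0.16), against 7.09% lower and 10.2% higher of all genes. Nuclei with these markers in front made up 10.9 ± 2.61% of members and 22.6 ± 3.00% of matched nuclei (SD, n = 3 pools), a share that rests on the same genes and is no separate measurement.

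The 10 genes with the largest falls were Tenm2, Pde11a, Cadps, Hs3st4, Pcdh15, Il33, Cntnap4, Enpp2, Sntg1 and Anks1b. Tenm2, an adhesion receptor, had the largest fitted fall (-3.68 ± 0.36), but 85.0% of its 260 UMIs in matched nuclei lay in 1 nucleus of pool 1. Without pool 1 it fell short of the threshold (-1.81, adjusted p 0.126). For Hs3st4 1 nucleus held 42.7% of the matched UMIs and for Cadps 26.6%. Enpp2, which makes lysophosphatidic acid, was at 11, 8.3 and 10.1 CPM in cycling nuclei and 55.1, 48.6 and 17.4 CPM in matched nuclei (-2.16 ± 0.26). Enpp2 was also called in the mean over marker groups (-1.16 ± 0.40, adjusted p 0.0423), where Pde11a, Cadps, Hs3st4, Sntg1 and Anks1b were not. Cadps fell in the valve interstitial group (-4.53, adjusted p 0.000753), with a value of 4.68 over 0 matched UMIs in the fibroblast group.

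To compare nuclei with like markers, gated nuclei were assigned to the marker list in which they were highest relative to the mean of all gated nuclei. These groups are ranges of a score and not cell types: 141 of 726 members had a second list within 1.5-fold of the first. The smooth muscle list led in 287 members, the fibroblast list in 218 and the valve interstitial list in 78. The list drawn up for pericytes led in 131, but Vtn had no UMI in members and Higd1b 5, and smooth muscle genes stood at 4475 CPM there, so the group is named by Cspg4 and Abcc9. The remaining 12 members had under 2 UMIs of every list.

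Cycling nuclei were a smaller share of the valve interstitial group than of the others. In pools 1 to 3 they were 8.62%, 5.65% and 6.14% of it, below the lowest pool of each other named group, with a mean of 6.80 ± 1.59% (SD, n = 3). The means were 12.9 ± 3.42% for the smooth muscle group, 15.1 ± 0.243% for the Cspg4 and Abcc9 group and 16.96 ± 1.96% for the fibroblast group. Nuclei with at least 2000 UMIs were then thinned to 2000 UMIs, with 2 or more cycle UMIs required. The shares were 11.6% in the valve interstitial group, 17.1% in smooth muscle, 18.8% in Cspg4 and Abcc9 and 21.9% in fibroblast, in the same order. Shallower nuclei were left out, so the sets differ. In pool 3 these were 154 of 540 smooth muscle and 69 of 342 valve interstitial nuclei. They were also 64 of 344 fibroblast and 23 of 155 Cspg4 and Abcc9 nuclei. When 4 list UMIs were needed to join a group, the last 2 changed places, at 19.7% for Cspg4 and Abcc9 and 18.2% for fibroblast. These shares are a description with no test. A nucleus that lost valve interstitial RNA while cycling would leave that group, and this cannot be told apart from fewer dividing cells of that kind.

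**Figure D5:**
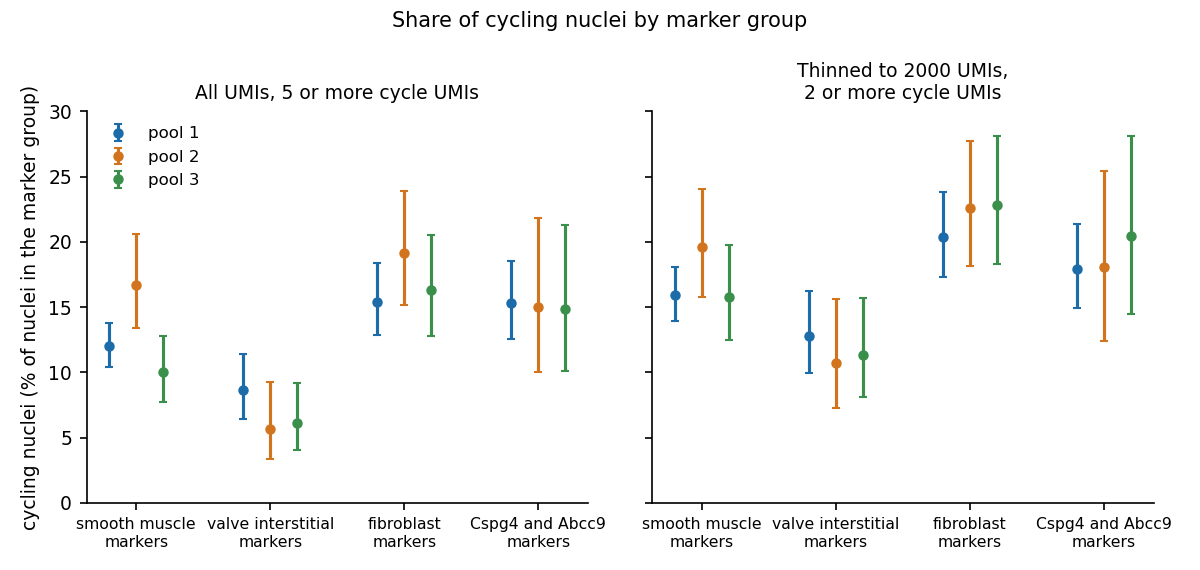
Cycling nuclei as a percentage of gated nuclei in each marker group and pool, with Wilson 95% intervals for counting error. Left, all UMIs. Right, only nuclei with at least 2000 UMIs, thinned to 2000. Of the 4 named groups the valve interstitial one is lowest in each pool and panel, at 5.65 to 8.62% on the left.

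With cycling and non-cycling nuclei matched inside each marker group, 773 of 7421 genes were higher (10.4%) and 453 lower (6.1%) in the mean over the 4 groups, 16.5% in all. Of the rises of the first comparison that could be tested here, 704 of 904 were called in the same direction (77.9%). Of the falls, 356 of 675 were (52.7%). Without pool 1 the number of genes called was 569 in place of 1226. Single groups gave fewer calls: 6.5% of genes in the smooth muscle group (5.59% higher, 0.903% lower), 3.81% in the valve interstitial (2.98% and 0.835%), 6.94% in the fibroblast (5.54% and 1.4%) and 4.95% in the Cspg4 and Abcc9 group (4.29% and 0.66%).

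In the mean over the groups all 40 replication genes and all 67 mitosis genes tested rose, as did 22 of 24 repair, 18 of 32 cycle control and 19 of 25 chromatin genes, against 10.4% of all genes. In the valve interstitial group alone 22 of 40 replication, 56 of 67 mitosis and 18 of 24 repair genes were called as higher, against 2.98% of all genes. As before, many of these genes pass the low-count filter through the cycling nuclei. Pola1 rose by 1.84, 1.72, 2.13 and 2.32 on the log2 scale in the smooth muscle, valve interstitial, fibroblast and Cspg4 and Abcc9 groups, and Brca1 by 4.45, 4.63, 4.68 and 4.59. Ccnd3 fell by 0.68 ± 0.13 in the mean of the groups (adjusted p 0.000198) and Ccnd2 by 0.60 ± 0.13 (adjusted p 0.00102).

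In the mean over groups 8 of 52 matrix genes fell and 1, Col15a1, rose, and 6 of 39 growth factor genes fell and none rose, against 6.1% lower and 10.4% higher of all genes. The groups were assigned by the valve interstitial markers themselves (Col9a1 and Mfap5 of the matrix list are also group markers), so the change of those markers inside the groups is not a test and is not given. Igf1 still fell, by 0.85 ± 0.18 (adjusted p 0.000864), with values of -1.32 in the valve interstitial group, -1.37 in the fibroblast group, -0.91 in the smooth muscle group and 0.18 in the Cspg4 and Abcc9 group, of which the first 2 passed the threshold. Lum fell by 0.57 ± 0.16 and Mmp2 by 0.54 ± 0.17. Lum was at -1.16 in the valve interstitial and -1.15 in the fibroblast group. It was at 0.04 in the smooth muscle group and -0.01 in the Cspg4 and Abcc9 group. For Mmp2 these values were -1.25, -0.93, 0.02 and 0.001. Of the matrix list, 4 genes fell in the valve interstitial and 6 in the fibroblast group. In the smooth muscle group 0 fell, and in the Cspg4 and Abcc9 group 0 fell and 1 rose. In the mean over groups Dcn, at -0.40 with an adjusted p of 0.155, and Vcan, at -0.27 with 0.174, were not called, but Dcn fell in the valve interstitial group (-1.18, adjusted p 0.0319) and was -0.94 in the fibroblast group.

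The difference in response between groups was tested directly. Between the valve interstitial and smooth muscle groups 2 of 7421 genes passed (0.027%), between the valve interstitial and fibroblast groups 3 (0.0404%), and between the fibroblast and smooth muscle groups 0 (0%) by edgeR, where 359 had an unadjusted p under 0.05 and DESeq2 also called 0. With no low-count filter the numbers were 34, 34 and 22. The valve interstitial group held 14 to 43 members per pool. Each of these calls was lost without pool 1 and without pool 2.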

How the data were processed

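Each of the 3 deposited matrices gives UMI counts, not normalized, made by the authors with Cell Ranger (7.0.1 and 7.1.0 per the submitters' processing notes, 7.1.0 per the file headers) on GRCm39. The annotation, the use of intronic reads and the way nuclei were called are not given in the sources used here. Whole numbers were found throughout.

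Nuclei were selected by the rule given at the opening of the results. No doublet caller was used, and the gates and the alternatives with limits on depth or other-type UMIs stand in its place. The members, the gene lists and the tests were chosen with earlier results of these data known. Beside the lists, the text names the strongest risers (up to 15) and fallers (up to 10) by fold change among genes with an adjusted p under 0.05 and the same direction in 3 of 3 pools, and up to 5 genes per difference between marker groups. Any list gene may be named, and those named were picked after their values were seen.

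Members and gated nuclei with 0 cycle UMIs were paired by UMI total within a pool, without replacement, and their UMIs summed per pool and state. The sums were tested with the quasi-likelihood test of edgeR 4.0.16 in R 4.3.3 (TMM, filterByExpr, pool as a block because both sums of a pool come from 1 library), and p-values adjusted by Benjamini-Hochberg across every tested gene. DESeq2 1.42.0 was an alternative. A fold change is on the log2 scale. Its SE is the size of the fold change divided by the square root of the F statistic of the test. This SE is worked back from the test and is not a standard error of the fitted coefficient. CPM are TMM-scaled for single genes and plain for list sums. Within marker groups the pairing was repeated inside each group, groups needed 10 members in every pool, and the effect was averaged over the groups. Both fits were tested on simulated data. Nothing states whether the pools came from separate litters, so p-values measure the spread between these 3 pools only.

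The alternatives were DESeq2, no low-count filter, no pool block, leaving out each pool, unmatched nuclei, 3 or 8 cycle UMIs, 5 collagen UMIs, at most 15000 UMIs, at most 1% mitochondrial UMIs, and at most 1 UMI of other cell types, with under 5 UMIs of each other type added after seeing the data. The EGFP count was read as a feature of the deposited tables. The promoter table had 8221 of the 10317 genes tested by symbol and 8 more by a synonym, under 80%, so the shares are set against its protein-coding promoters and not against the genes tested.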

Additional observations from a re-analysis of the deposited data

Results flagged for a closer look

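In 5 cases the change with cycling differed between a pair of marker groups by a test of the difference itself (edgeR interaction contrast, adjusted p under 0.05). Each value is the log2 change in the valve interstitial group minus that in the other group.

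St3gal1, a sialyltransferase, differed by -4.16 ± 0.73 (SE) from the smooth muscle group (adjusted p 0.0193) and by -4.22 ± 0.71 from the fibroblast group (adjusted p 0.0107). Its UMIs in the valve interstitial group were 1, 0 and 2 in cycling nuclei of pools 1 to 3 and 16, 9 and 6 in matched nuclei. In the fibroblast group they were 46, 29 and 21 against 23, 12 and 9. In the smooth muscle group they were 43, 13 and 19 against 24, 10 and 4. The change passed the threshold in the valve interstitial group alone (adjusted p 0.000773), with 0.224 in the smooth muscle and 0.111 in the fibroblast group.

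Zeb2, a zinc finger transcription factor, differed by 1.53 ± 0.29 from the smooth muscle group (adjusted p 0.0416). It had 221, 63 and 106 UMIs in cycling and 112, 20 and 47 in matched nuclei of the valve interstitial group, and 642, 173 and 238 against 641, 314 and 212 in the smooth muscle group.

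The gene listed as LOC102631979 differed by 1.5 ± 0.27 from the fibroblast group (adjusted p 0.0184). It had 63, 21 and 30 UMIs in cycling and 39, 7 and 13 in matched nuclei of the valve interstitial group, and 101, 58 and 57 against 125, 76 and 61 in the fibroblast group. Cadps, a factor of vesicle release, differed by -9.2 ± 1.74 from the fibroblast group (adjusted p 0.0271). It had 0, 0 and 3 UMIs in cycling and 47, 20 and 7 in matched nuclei of the valve interstitial group, and 6, 5 and 2 against 0, 0 and 0 in the fibroblast group, so the fitted size depends on the prior count and is no bound. All 5 calls were lost without pool 1 (adjusted p 0.097 to 0.506) and without pool 2 (0.286 to 0.506). Without pool 3 St3gal1 and Cadps passed against the fibroblast group (0.0159 and 0.0125), while St3gal1 and Zeb2 against the smooth muscle group (0.147 and 0.429) and LOC102631979 (0.644) did not. The signs were the same in every case.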

How the results depend on the processing

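Of 83 called genes named by rule or list, 63 kept direction and threshold in every alternative that gave a value, and 20 lost the call in at least 1. The number of genes called in the depth-matched comparison, 1780, was 736 with DESeq2 and 659 with no replicate block, and 764 to 1781 when 1 pool was left out. Both states of a pool share 1 library, so the block follows from the design, and without it the mean over marker groups stayed within 1.5 times of its 1226 genes. That number was 569 to 974 with 1 pool left out. For the difference between the valve interstitial and smooth muscle groups, 2 genes became 1 with DESeq2, 34 with no filter, 1 with no replicate block and 0 to 5 with 1 pool left out. For the valve interstitial and fibroblast groups, 3 became 34 with no filter, 1 with no replicate block and 0 to 2 with 1 pool left out. For the fibroblast and smooth muscle groups, 0 became 22 with no filter.

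Nuclei with at least 2000 UMIs were thinned to 2000, and shallower ones were left out. The share of cycling nuclei with 2 or more cycle UMIs was then 17.1% in the smooth muscle group, 11.6% in the valve interstitial, 21.9% in the fibroblast and 18.8% in the Cspg4 and Abcc9 group. With 3 or more it was 14.3% in the last, which had 19.7% when 4 list UMIs were needed to join a group. Signs turned for genes near 0. Pttg1 had log2 fold changes of -0.3078 to 0.0522 with a pool left out (positive without pool 3), 0.0249 unmatched, 0.0649 at 8 or more cycle UMIs, 0.0216 at 5 collagen UMIs and 0.0337 at most 15000 UMIs. Myh11 was -0.0521 at 8 or more cycle UMIs and -0.1078 at 1% mitochondrial UMIs, where Eln was -0.0102. Abcc9, not called, was 0.1512 with under 5 UMIs of each other type. The cause of these changes was not tested. Genes with 1 to 3 UMIs in matched nuclei have wide counting intervals, as given with their ratios.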
